A study of Saccharomyces cerevisiae with 2 samples.

Results

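The genes described here encode the Snf1 protein kinase and the Mig1 repression machinery of the budding yeast Saccharomyces cerevisiae, 10 genes of the 7163 features in the deposited table, chosen by their systematic names. They are SNF1 (YDR477W), SNF4 (YGL115W), SIP1 (YDR422C), SIP2 (YGL208W), GAL83 (YER027C), REG1 (YDR028C), MIG1 (YGL035C), MIG2 (YGL209W), TUP1 (YCR084C) and CYC8 (YBR112C), and each was present in the table and above the expression filter. RNA sequencing compared UV02_HG, the strain that the series title calls tolerant to high glucose, with MF02, labelled wild type. Both strains grew in 40% (w/v) glucose and were collected in mid-exponential phase, so every value below is from cells in high glucose and none from low glucose. The labels do not say how UV02_HG was obtained or which alleles it carries, and each strain stands as 1 sample with 2 columns of FPKM values (fragments scaled by gene length and library size).

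Snf1 is the yeast AMP-activated protein kinase. It works as a complex of the catalytic subunit Snf1, the activating gamma subunit Snf4 and a beta subunit (Sip1, Sip2 or Gal83), and it is switched on by phosphorylation when glucose runs low and switched off by the Glc7 phosphatase, which Reg1 directs to it. In ample glucose the zinc finger proteins Mig1 and Mig2 sit on the promoters of genes for other sugars and recruit the corepressor Cyc8-Tup1. When Snf1 is active it phosphorylates Mig1, which leaves the nucleus, and the repressed genes come on.

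MIG1 and TUP1, a repressor and its corepressor, were the furthest below MF02 of the 10 genes in UV02_HG, 8.29-fold and 8.32-fold, and SNF4 was the nearest, 1.25-fold below. Of the 10 genes, 9 were lower in UV02_HG by 2-fold or more and 0 at least 2-fold higher, where 47.2% of the 6291 expressed features were at least 2-fold lower and 14.7% at least 2-fold higher. The members' median log2 ratio of UV02_HG over MF02 was -1.96 (-2.55 to -1.32 when single columns are compared, in 4 combinations), against -0.89 for all expressed features. A ratio is log2 of (FPKM + 1) of UV02_HG over (FPKM + 1) of MF02, taken on the means of the columns. At least 4-fold lower were 5 members and 17.8% of all features. In all 10 genes both UV02_HG columns lay below both MF02 columns, as they did in 56.4% of features. In every combination of single columns 5 members, SIP1, GAL83, MIG1, MIG2 and TUP1, were at least 2-fold lower, and 24.9% of features were.

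The labels list 1 sample per strain, while the design text mentions duplicates, so whether the columns of a strain are separate cultures or repeat runs of 1 sample is not known. They were treated as repeat runs, no p-value was computed, and the column values stand in place of a replicate error. A lower FPKM from a whole culture can mean fewer cells with the transcript or less of it per cell. It can also mean that other transcripts took a larger share of the library, and these readings cannot be told apart. Library totals were 12507299 and 13040931 reads in UV02_HG and 12796339 and 15144991 in MF02, and each member had between 100 and 6893 reads in a column. Across 5695 genes, which are not independent replicates, the strain ratio went down as coding length went up (Spearman's rho -0.53). For the ratio of column 2 to column 1 within a strain, rho with length was 0.07 in UV02_HG and 0.62 in MF02. The origin of these trends was not tested. The members are of middle to long length, 969 to 3045 nt of coding sequence, where the running median of all genes was already between -0.98 (at SNF4) and -1.61 (at REG1). Of the 3058 genes between the shortest and the longest member in length, 67% were at least 2-fold lower. The other shares above, for 4-fold, for columns apart and for every combination of columns, were not computed within that length range. Each member is therefore also given relative to genes of like length, as its ratio minus the median over that gene and the 100 genes on either side of it in coding length.

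On that scale the members' median was -0.52, and 2 of the 10, MIG1 and TUP1, were at least 2-fold lower, where 16.7% of genes with a known coding length were, a share near that of the members. None was at least 2-fold higher, against 17.1% of genes. A further 5 members had ratios below 0 on that scale and 3 had ratios above it.

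**Figure D1:**
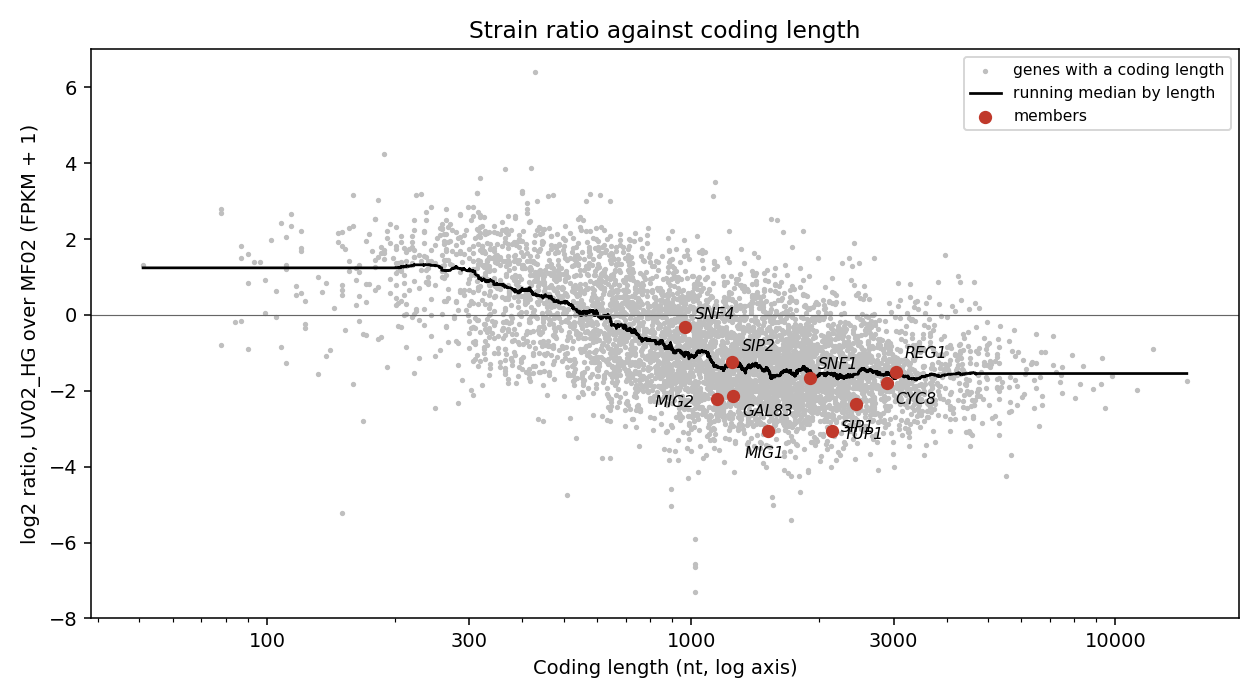
Log2 ratio of UV02_HG over MF02 (FPKM + 1) against coding length in nt on a log axis, with all 5695 expressed genes that have a coding length in grey, their running median by length as a black line and the 10 members in red. MIG1 and TUP1 lie well below the line, at -3.05 and -3.06, while SNF4 at -0.32 lies above it.

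The catalytic subunit gene SNF1, on chromosome IV, had 16.9 and 24.96 FPKM in UV02_HG, against 38.05 and 99.1 FPKM in MF02. The strains' columns did not overlap, but the MF02 columns differed by 2.61-fold, more than the UV02_HG columns did (1.48-fold). SNF1 was 3.18-fold lower in UV02_HG (1.504 to 5.61 over single columns) and below 2-fold with UV02_HG column 2 over MF02 column 1. Relative to genes of like length its log2 ratio was -0.17, and 84 of its length neighbours had a lower ratio and 116 a higher one, so for its length SNF1 was near the middle.

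SNF4, on chromosome VII, encodes the gamma subunit that binds adenine nucleotides and relieves the autoinhibition of Snf1. It had 88.9 and 91.3 FPKM in UV02_HG, against 99.5 and 125.7 FPKM in MF02. The columns lay close together, and SNF4 differed least between the strains of all 10 genes. Its log2 ratio was -0.32 (-0.49 to -0.12), and it was above 0 relative to length (0.66), with the trimmed mean of M values, after centring on the median gene and under upper quartile scaling. By reads, 2232 in UV02_HG against 3078 in MF02, it was 1.26-fold lower per library read, with an exact 95% counting interval of 1.19 to 1.33.

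Within a column the ratio of SNF4 to SNF1 was 5.28 and 3.66 in UV02_HG, against 2.62 and 1.27 in MF02. Such a ratio does not depend on how the columns are scaled to each other. SNF4 thus stood higher over the catalytic subunit gene in UV02_HG, by 2.63-fold on the column means, and the length trend is part of this value, since the running median was -0.98 at SNF4 (969 nt) and -1.50 at SNF1 (1902 nt). SNF4 exceeded SNF1 in every column, and the lowest UV02_HG column was above the highest MF02 column. These pairs, here and below, were chosen after seeing the data, and no share of gene pairs in general with columns apart was computed.

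The beta subunits place the kinase in the cell: Gal83 directs it to the nucleus in low glucose, Sip1 to the vacuolar membrane, and Sip2 stays in the cytoplasm. GAL83 had 19.4 and 28.1 FPKM in UV02_HG, against 93.8 and 122.8 FPKM in MF02. It was 4.41-fold lower (3.25 to 6.06), with -0.85 relative to length (-1.44 to -0.47), and 37 of its length neighbours stood lower. SIP2 had 12.1 and 17.2 FPKM in UV02_HG, against 37.8 and 34.8 FPKM in MF02. It was the only member with the lower value in MF02 column 2, and it was 2.38-fold lower in UV02_HG (1.97 to 2.96), with 1.97-fold for UV02_HG column 2 over MF02 column 2. Relative to length its log2 ratio was 0.06 (-0.75 to 0.64), so SIP2 was level with genes like it. SIP1, the longest and weakest of these genes, had 3.27 and 3.66 FPKM in UV02_HG, against 13.3 and 30.5 FPKM in MF02. SIP1 was 5.13-fold lower (3.06 to 7.39), at -0.80 relative to length, and rested on 100 and 117 reads in UV02_HG and 416 and 1131 in MF02.

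Of the summed FPKM of the beta subunit genes, GAL83 held 55.8% and 57.4% in UV02_HG, against 64.8% and 65.3% in MF02. SIP2 held 34.8% and 35.1% in UV02_HG, against 26.1% and 18.5% in MF02. GAL83 was the main beta subunit transcript in every column, with a smaller lead over SIP2 in UV02_HG. SIP1 held 9.38% and 7.48% in UV02_HG, against 9.17% and 16.2% in MF02, and its columns overlapped. GAL83 and SIP2 are paralogues of nearly the same coding length (1254 and 1248 nt), so the length trend barely enters their ratio. It was 1.61 and 1.64 in UV02_HG, against 2.48 and 3.53 in MF02, a 1.84-fold difference of the column means with no overlap.

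REG1, on chromosome IV, encodes the regulatory subunit that brings the Glc7 phosphatase to Snf1. It had 18.1 and 20.4 FPKM in UV02_HG, against 29.3 and 83.2 FPKM in MF02, whose columns differed by 2.84-fold, the widest of any member. REG1 was 2.83-fold lower in UV02_HG (1.42 to 4.40), below 2-fold against MF02 column 1 with either UV02_HG column. Relative to length its log2 ratio was 0.11 (0.12 to 0.21 over single columns). Its coding sequence is 3045 nt, the longest of the members.

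**Figure D2:**
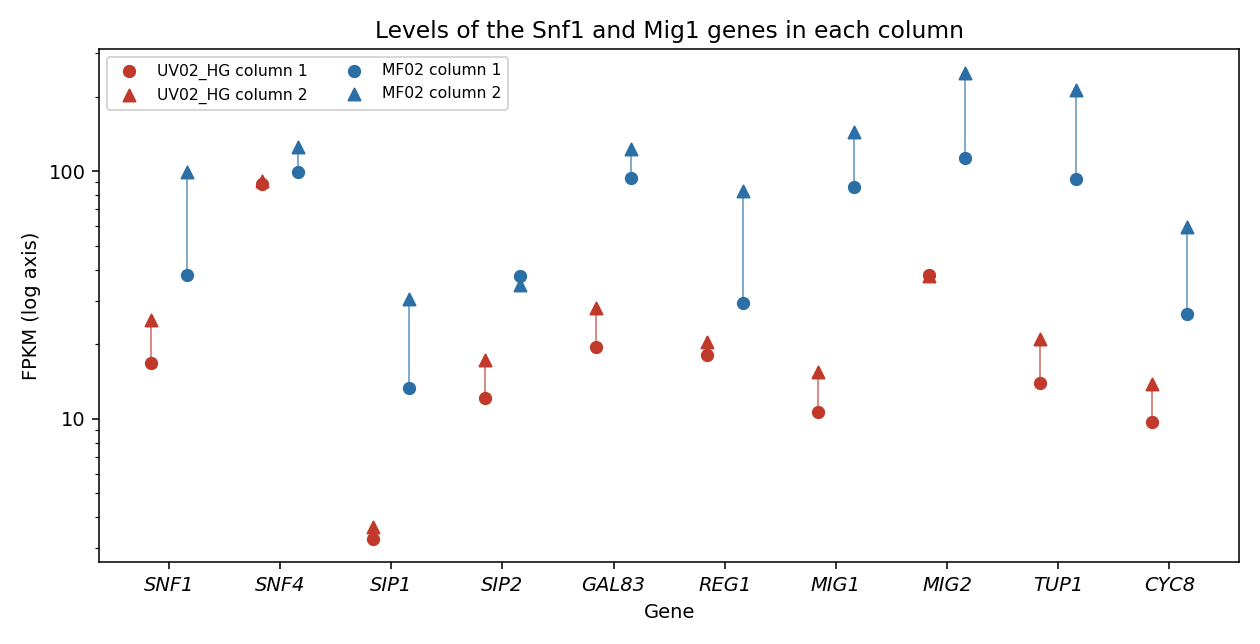
FPKM on a log axis for each member, with the UV02_HG columns in red on the left of each pair and the MF02 columns in blue on the right (circles column 1, triangles column 2, a line joining the columns of a strain). Both UV02_HG columns lie below both MF02 columns for all 10 genes, narrowly for SNF4, and the MF02 columns are the wider apart for most genes.

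MIG1, on chromosome VII, encodes the main DNA-binding repressor of glucose repression. It had 10.7 and 15.4 FPKM in UV02_HG, against 86.6 and 144.2 FPKM in MF02. Both UV02_HG columns were far below both MF02 columns. MIG1 was 8.29-fold lower (5.33 to 12.5), and at least 2-fold lower under each of the 11 other scalings, pseudocounts, column choices and adjustments tried. Relative to length its log2 ratio was -1.61 (-1.98 to -1.30), and 10 of its length neighbours stood lower and 190 higher. By reads, 507 in UV02_HG against 4988 in MF02, MIG1 was 8.996-fold lower with an exact 95% counting interval of 8.21 to 9.88, narrower than the range over single columns.

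MIG2, also on chromosome VII, encodes a zinc finger repressor with a DNA preference like that of Mig1. It had 38.2 and 37.7 FPKM in UV02_HG, against 112.9 and 249.5 FPKM in MF02. MIG2 was 4.68-fold lower (2.91 to 6.47), at -0.86 relative to length (-1.07 to -0.39), with 36 length neighbours lower. In UV02_HG the MIG1 level was a smaller part of the MIG2 level, at 0.279 and 0.409 within the columns, against 0.767 and 0.578 in MF02. The ratio of the means differed by 1.85-fold and the columns did not overlap. MIG2 was thus the higher of the pair in every column, by more in UV02_HG.

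MIG2 and SIP2 lie next to each other in the same orientation on chromosome VII, and their paralogues MIG3 and GAL83 lie next to each other on chromosome V. MIG3, a further repressor gene of the Mig family, had 26.04 and 34.3 FPKM in UV02_HG, against 86.2 and 88.7 FPKM in MF02, a 2.84-fold lower level (2.47 to 3.32), with -0.10 relative to length. Relative to length MIG2 stood at -0.86 (-1.07 to -0.39 over single columns) beside SIP2 at 0.06 (-0.75 to 0.64). MIG3 stood at -0.10 (-0.60 to 0.37) beside GAL83 at -0.85 (-1.44 to -0.47), and the ranges overlapped in both pairs. The ratio of MIG2 to MIG3, of similar length, was 1.47 and 1.10 in UV02_HG, against 1.31 and 2.81 in MF02, and overlapped.

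Mig1 recognises a short GC-rich box. The box CCGGGG was searched, and so were CTGGGG, the related GCGGGG and also GTGGGG, on both strands in the R64 reference genome (RefSeq), which is the sequence of strain S288C, since the sequences of MF02 and UV02_HG were not analysed here. Among the members, MIG1 held 4 matches in the 600 bases before its coding start and MIG2 held 1, and the other 8 had no match in that window. The sites are printed because they lie before the 2 repressor genes themselves. They are given on the gene's strand, 5′ to 3′, with the match in capitals (a match in CCCC form is on the opposite strand), after the distance of the first base of the match from the coding start and the R64 position.
MIG1, 465 bases before the start, chrVII:433510-433539, minus strand: gtagcggccgggCCCCGCgagaaactccag
MIG1, 328 bases before the start, chrVII:433373-433402, minus strand: tgcggactgccaCCCCACtccgggaaaacc
MIG1, 216 bases before the start, chrVII:433261-433290, minus strand: tggacgagaaaaGTGGGGaagagcaagcag
MIG1, 138 bases before the start, chrVII:433183-433212, minus strand: ccttttttttcaCCCCAGtactcattaacg
MIG2, 363 bases before the start, chrVII:95483-95512, plus strand: cgggataagaaaCCCCGCctccactttttt

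For comparison, the following matches lie before SUC2, the invertase gene that is the classic target of Mig1, and CAT8, the activator gene that Mig1 represses and Snf1 turns on.
SUC2, 499 bases before the start, chrIX:36874-36903, plus strand: gcttccattattCCCCGCatttttattact
SUC2, 439 bases before the start, chrIX:36934-36963, plus strand: ttaggaaattatCCGGGGgcgaagaaatac
SUC2, 405 bases before the start, chrIX:36968-36997, plus strand: agcgttaatcgaCCCCACgtccagggtttt
CAT8, 231 bases before the start, chrXIII:831543-831572, minus strand: atgcatggagcgGCGGGGctgatattttgt
CAT8, 215 bases before the start, chrXIII:831527-831556, minus strand: ggctgatattttGTGGGGtacgaaagcatg

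In the 300-base window from 250 bases before to 50 after the coding start, 1 of the 10 members (MIG1), 6 of the 16 glucose-repressed genes listed below and 11.6% of 6001 protein-coding genes held a match. In the 600 bases before the start the counts were 2 of 10 and 13 of 16, with 27.8% of 5999 genes. A match is a run of letters and not a shown binding site, and the longer window can reach into a neighbouring gene.

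TUP1, on chromosome III, encodes the WD40-repeat corepressor that is brought to promoters with Cyc8. It had 13.9 and 21.0 FPKM in UV02_HG, against 92.7 and 212.5 FPKM in MF02. The groups lay far apart, and TUP1 was 8.32-fold lower (4.25 to 14.3). Relative to length its log2 ratio was -1.52 (-1.82 to -1.28), with 10 length neighbours lower and 190 higher. By reads, 959 in UV02_HG against 9433 in MF02, it was 8.99-fold lower (exact 95% counting interval 8.41 to 9.62).

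CYC8, on chromosome II, also called SSN6, encodes the tetratricopeptide-repeat partner of Tup1 that contacts the DNA-binding repressors. It had 9.70 and 13.8 FPKM in UV02_HG, against 26.6 and 59.3 FPKM in MF02. CYC8 was 3.45-fold lower (1.87 to 5.63), below 2-fold for UV02_HG column 2 over MF02 column 1, and stood at -0.25 relative to length (-0.59 to -0.02). The TUP1 level over the CYC8 level within a column was 1.43 and 1.53 in UV02_HG, against 3.49 and 3.58 in MF02. Each strain's columns lay close together here, although the MF02 columns of each gene alone differed by over 2-fold (2.29 for TUP1 and 2.23 for CYC8). The ratio was 2.39-fold lower in UV02_HG. The length trend barely enters it, as the running median was -1.53 at TUP1 (2142 nt) and -1.54 at CYC8 (2901 nt).

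**Figure D3:**
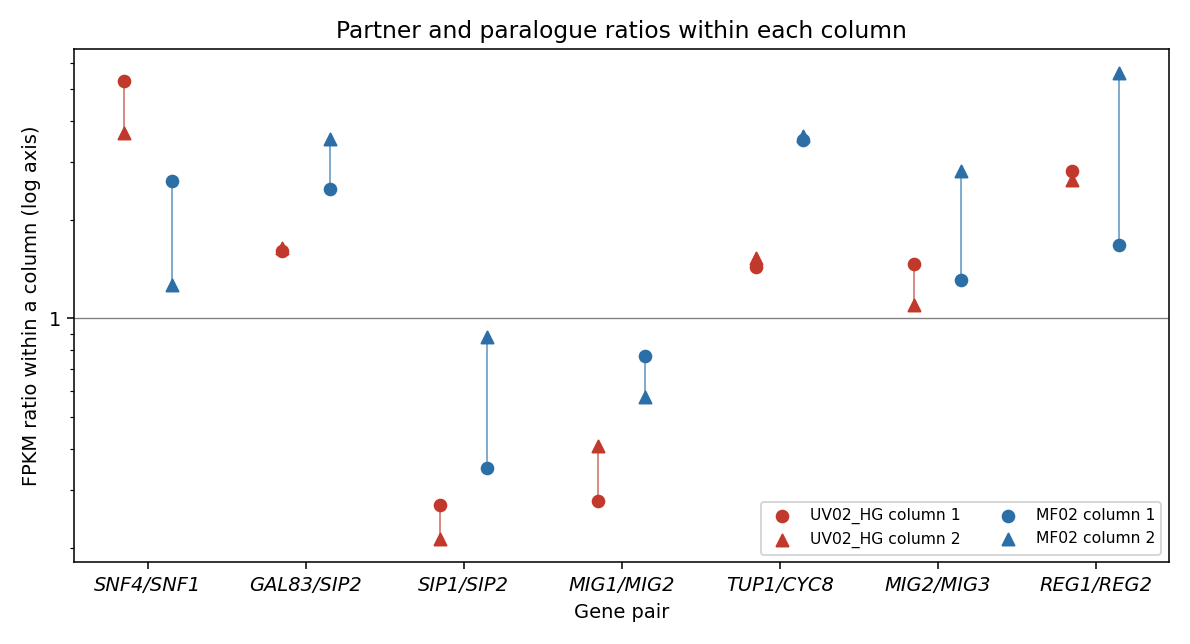
FPKM of the first gene over the second within each column, on a log axis, for 7 pairs of partners or paralogues, with UV02_HG in red on the left and MF02 in blue on the right of each pair (circles column 1, triangles column 2). The columns of the strains are apart for SNF4/SNF1, GAL83/SIP2, SIP1/SIP2, MIG1/MIG2 and TUP1/CYC8, and overlap for MIG2/MIG3 and REG1/REG2. The pairs were chosen after seeing the data, and no share of gene pairs in general with columns apart was computed. SIP1 (2448 nt) is longer than SIP2 (1248 nt), so the length trend is part of their ratio.

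By column means, the order of the members' levels in UV02_HG was SNF4 (90.1 FPKM), MIG2 (37.95), GAL83 (23.8), SNF1 (20.9), REG1 (19.3), TUP1 (17.4), SIP2 (14.7), MIG1 (13.0), CYC8 (11.7) and SIP1 (3.47). The steps from SNF4 to MIG2, from MIG2 to GAL83 and from CYC8 to SIP1 had columns that did not overlap, and the other neighbours in the order did overlap. In MF02 the order was MIG2 (181.2 FPKM), TUP1 (152.6), MIG1 (115.4), SNF4 (112.6), GAL83 (108.3), SNF1 (68.6), REG1 (56.3), CYC8 (42.9), SIP2 (36.3) and SIP1 (21.9), and only SIP2 and SIP1 had columns apart. On the column means TUP1 took place 6 in UV02_HG against place 2 in MF02, MIG1 place 8 against 3, and SNF4 place 1 against 4. FPKM is per length, but the ratio of the MF02 columns went with length, and the order there depended on the column. Whether the length trend bears on the order was not tested. In UV02_HG SNF4 took place 1 in both columns, TUP1 places 6 and 5, and MIG1 place 8 in both. In column 1 of MF02 SNF4 took place 2, TUP1 place 4 and MIG1 place 5, and in column 2 these places were 4, 2 and 3.

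**Figure D4:**
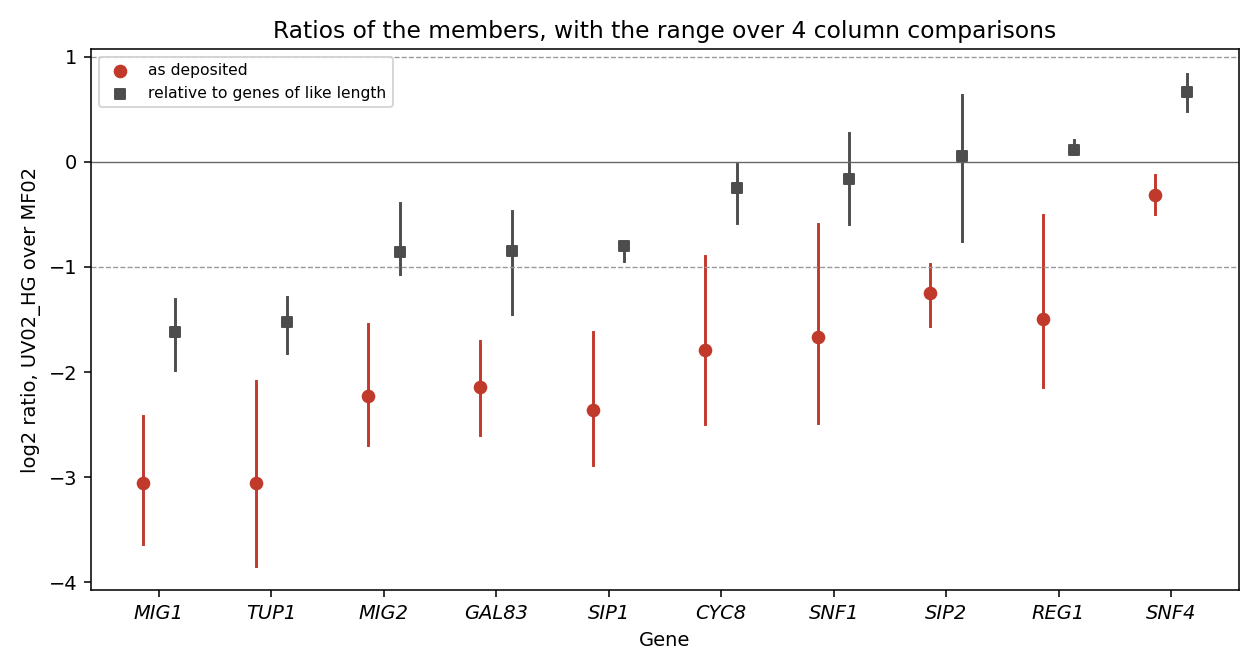
Log2 ratio of UV02_HG over MF02 for each member as deposited (red circles) and relative to genes of like length (dark squares), with lines for the range over the 4 comparisons of single columns and dashed lines at 2-fold. As deposited every gene is below 0, and relative to length MIG1 (-1.61) and TUP1 (-1.52) are past 2-fold while SNF4 (0.66) is highest.

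The rest of the pathway was read from 7 lists of 51 genes, 50 of them expressed. Their counts stand against the shares given above, 47.2% of all features and 67% of genes in the members' length range at least 2-fold lower, and 14.7% of features at least 2-fold higher. Relative to length these shares were 16.7% and 17.1%. All 3 kinases that phosphorylate Snf1 were lower in UV02_HG by 2-fold or more, and their median was -1.92. SAK1, the main such kinase, had 2.73 and 2.66 FPKM in UV02_HG, against 8.89 and 29.5 FPKM in MF02, a 5.46-fold lower level (2.65 to 8.32). TOS3 (3.78-fold lower, 1.98 to 5.82) and ELM1 (3.28-fold lower, 1.63 to 5.07) followed. Relative to length the median was -0.44 and 0 of 3 were past 2-fold.

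On the switching-off side, 5 of 6 genes were lower by 2-fold or more and 0 higher, with a median of -1.87 (-0.84 relative to length). GLC7, the catalytic phosphatase gene, had 322.9 and 360.5 FPKM in UV02_HG, against 359.3 and 704.7 FPKM in MF02, and its columns overlapped. Its log2 ratio was -0.64, and 0.30 relative to length. SIT4, another phosphatase gene that acts on Snf1, was 6.03-fold lower (3.93 to 9.07) and at -1.67 relative to length. The 14-3-3 protein genes BMH1 and BMH2 were 4.61-fold and 3.16-fold lower, at -1.53 and -0.98 relative to length. HXK2, the hexokinase gene whose product takes part in Mig1 repression, was 4.23-fold lower (2.60 to 7.05) and at -0.69 relative to length. REG2, the paralogue of REG1, was 2.13-fold lower and at 0.01 relative to length.

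Among 8 other repressors that bring Cyc8-Tup1 to promoters 5 were at least 2-fold lower and 0 higher, with a median of -1.33 (-0.07 relative to length). ROX1, the repressor of hypoxic genes, had 3.68 and 4.43 FPKM in UV02_HG, against 23.3 and 74.1 FPKM in MF02, a 9.83-fold lower level (4.47 to 16.04) and -2.13 relative to length. It was the 1 gene of this list past 2-fold relative to length. The glucose repressor genes NRG1 (log2 ratio -0.53) and NRG2 (-0.18) stood near MF02, at -0.18 and 0.08 relative to length, and upper quartile scaling, the trimmed mean of M values and centring on the median gene each put both above 0. RGT1 (-2.02), SKO1 (-1.65), RFX1 (-1.16) and CUP9 (-0.92) lay between -0.40 and 0.41 relative to length. Of 4 histone deacetylase genes, which Cyc8-Tup1 engages, 2 were at least 2-fold lower. RPD3 was 5.96-fold lower and at -1.26 relative to length, HDA1 3.29-fold lower and at -0.17, and HOS1 and HOS2 had log2 ratios of -0.04 and -0.27 (above 0 after centring), with 1.28 and 1.12 relative to length.

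For 7 activator genes of the derepressed state the median was -0.67 (0.22 once centred on the median gene), and 0.93 relative to length, with 2 of 7 at least 2-fold lower and 1 at least 2-fold higher. Relative to length 0 were past 2-fold below and 3 above. CAT8, which activates gluconeogenesis genes, had 20.05 and 21.02 FPKM in UV02_HG, against 14.7 and 7.09 FPKM in MF02. Both UV02_HG columns were above both MF02 columns, and the log2 ratio was 0.86 (0.42 to 1.44), with 2.41 relative to length (1.09 to 3.52). With equal FPKM totals its log2 ratio was -0.12, and those of FBP1, ACS1 and ENA1 below were negative too. SIP4, an activator gene under Cat8 and Snf1, had 12.4 and 16.1 FPKM in UV02_HG, against 5.27 and 4.59 FPKM in MF02, at a log2 ratio of 1.36 (1.09 to 1.61) and 2.83 relative to length (1.85 to 3.52). Of its length neighbours 199 stood lower, and 196 did so for CAT8. ADR1 (3.77-fold) and RDS2 (2.62-fold) were lower, at -0.32 and 0.09 relative to length. HAP4 (-0.86), ERT1 (-0.67) and GAL4 (-0.16) were within 2-fold. Relative to length they stood at 0.62 (0.49 to 0.74 over single columns), 0.93 (0.17 to 1.56) and 1.29 (0.23 to 2.11). The GAL4 columns overlapped, and another annotated gene overlaps GAL4 in R64.

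Of 16 genes known to be repressed by glucose, 8 were lower in UV02_HG by 2-fold or more and 0 at least 2-fold higher. Their median was -0.93 (-1.35 to -0.47 over single columns), close to the -0.89 of all features. Relative to length it was 0.36, with a sign that depended on the column (-0.54 to 1.14), and 3 genes were past 2-fold in each direction. These counts are near the shares of all features, 47.2% as deposited and 16.7% lower and 17.1% higher relative to length. Most of the 16 genes had their lower MF02 value in column 2, while among the members only SIP2 did. SUC2 had 134.7 and 128.0 FPKM in UV02_HG, against 917.1 and 349.8 FPKM in MF02, a 4.79-fold lower level (2.58 to 7.12). Relative to length it stood at -0.66, with single columns from -1.79 to 0.60. HXT4, a hexose transporter gene that may share reads with its relatives, was 9.88-fold lower, HXK1, the second hexokinase gene, 6.17-fold (3.37 to 13.4), and MTH1, a transporter gene regulator, 5.38-fold (3.44 to 7.96). These were the 3 at least 2-fold lower relative to length, at -1.77 (-2.95 to -0.68 over single columns), -1.24 (-2.86 to -0.07) and -1.12 (-1.46 to -0.86). GAL3, JEN1, GUT1 and MLS1 were between 2.01-fold and 2.87-fold lower, but stood at 0.08, 0.06, 0.24 and 0.47 relative to length. Over single columns GUT1 ran from 1.02-fold to 4.66-fold lower, JEN1 from 1.45-fold to 3.73-fold and MLS1 from 1.65-fold to 2.41-fold. The 3 genes at least 2-fold higher relative to length were ACS1 (2.15, 0.82 to 3.56 over single columns), FBP1 (1.81, 0.74 to 3.29) and PCK1 (1.03, 0.14 to 1.82), named after their values were seen. Their log2 ratios as deposited were 0.61, 0.82 and -0.47. PCK1 was weak, with 53 and 43 reads in UV02_HG against 93 and 67 in MF02. With a pseudocount of 0.1 the log2 ratio of PCK1 was -0.61. Over single columns the log2 ratio of ACS1 ran between 0.01 and 1.54 and that of FBP1 between 0.07 and 1.95, with the smallest differences against MF02 column 1.

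Of 7 genes that Cyc8-Tup1 represses outside glucose repression, 6 were expressed, 2 at least 2-fold lower and 1 at least 2-fold higher. HUG1, a short DNA damage gene, was 2.37-fold higher and at 0.00 relative to length, level with genes of its length. The reductase gene GRE2 (6.34-fold, 3.39 to 14.6) and the ribonucleotide reductase gene RNR2 (3.13-fold, 1.998 to 5.14) were lower. Relative to length they stood at -1.66 (-2.57 to -1.05 over single columns) and -0.26 (-1.38 to 0.54). GRE2 had 61.7 and 21.5 FPKM in the UV02_HG columns. ENA1, a sodium pump gene whose near-identical copies may share its reads, had 7.42 and 9.95 FPKM in UV02_HG, against 4.46 and 4.595 FPKM in MF02, at 0.81 and 2.49 relative to length. RNR3, a weakly expressed ribonucleotide reductase gene, had 1.90 and 2.23 FPKM in UV02_HG, against 3.86 and 3.997 FPKM in MF02. Its log2 ratio was -0.69, and 0.81 relative to length, and by reads, 138 in UV02_HG against 287 in MF02, it was 1.90-fold lower (exact 95% counting interval 1.55 to 2.35). The hypoxic gene ANB1 had overlapping columns, a log2 ratio of -0.00 and -0.37 relative to length, and the flocculin gene FLO1 was below the filter.

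**Figure D5:**
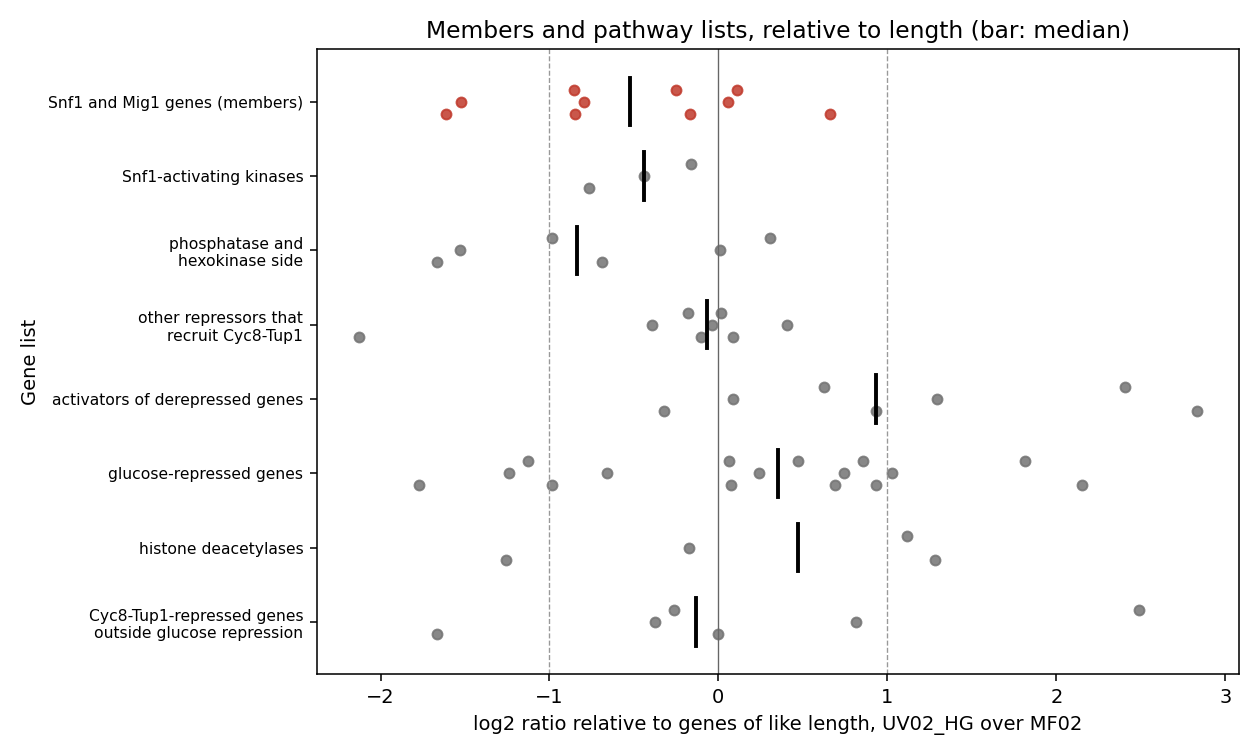
Log2 ratio of UV02_HG over MF02 relative to genes of like length, for the members (red) and the expressed genes of 7 pathway lists (grey), with a black bar at each list's median and dashed lines at 2-fold. The medians run between -0.84 for the phosphatase and hexokinase side and 0.93 for the activators of derepressed genes, and the members' median is -0.52.

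Across the 4 columns, the genes whose centred log2 values lay nearest to the mean profile of the members were BDF1 (Euclidean distance 0.0665), DUF1 (0.0765) and UBC6 (0.0774), of 5695 genes. BDF1, a chromatin reader gene, had 12.1 and 16.1 FPKM in UV02_HG, against 37.3 and 72.6 FPKM in MF02. This likeness rests on 4 columns and chiefly on the size of 1 strain difference and on the gap between the MF02 columns.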

How the data were processed

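The authors deposited FPKM values, scaled by gene length and library size, with 2 columns per strain per the file headers; the submitters' processing notes name HTSeq 0.6.1, TopHat2 2.0.12 and Bowtie2 2.2.3. The genome build is not given in the sources used here, nor is the strand setting. The labels give 1 sample per strain, although the design text speaks of duplicates, and whether the columns are separate cultures is not known. They were averaged as repeat runs of 1 sample, so no p-value was computed.

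Identifiers were matched to R64 (NCBI RefSeq) locus tags (6045 of 7163 features, all 10 members), and coding lengths came from its annotation. FPKM times length gave whole reads, within 0.02, for at least 99.8% of genes in each column and for every member, which gave the library totals. Intervals (Clopper-Pearson, 95%) cover counting error only. A count test was not run, since the columns may not be replicates. In R64 no member overlaps another annotated gene. R64 positions belong to the printed reference sequences only.

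Ratios used a pseudocount of 1 FPKM, which understates differences of weak genes, and a feature was kept when either strain had at least 1 FPKM. Members and lists were chosen with earlier results of these data known. All members were named, any gene of lists of up to 8 genes, and up to 8 of the glucose-repressed genes with the largest ratio in size. ACS1, FBP1 and PCK1 were named outside this rule, after their values were seen. The gene pairs and the 600-base window were chosen after seeing the data. The alternatives were 2 other pseudocounts (0.1 and 5), 4 scalings, single columns, the length adjustment, other filters (none, 5 FPKM) and thresholds of 1.5-fold and 4-fold. The code was tested on simulated reads. The tools were scipy 1.17.1, pandas 2.3.3, matplotlib 3.10.9, numpy 2.4.6 and Python 3.11.15. Protein sequences were not used here, and 4 rows without values were not analysed here.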

Additional observations from a re-analysis of the deposited data

How the results depend on the processing

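No paired analysis was possible because the labels give each strain 1 sample, and its columns may be what the design text means by duplicates. The file headers number the columns 1 and 2, but nothing says that a shared number marks a pair. The count of members at least 2-fold lower, 9 as deposited, was 5 after centring on the median gene and with the trimmed mean of M values, 2 relative to length and 5 at a 4-fold threshold. It was between 6 and 10 under the other settings: pseudocounts, equal FPKM totals, upper quartile scaling, single columns and a 1.5-fold threshold. The scalings moved the median of all features by -0.93 (equal FPKM totals), 0.63 (upper quartile), 0.79 (trimmed mean of M values) and 0.89 (centring on the median gene). The members' median log2 ratio, -1.96 as deposited, was -1.59 with a pseudocount of 5, -2.93 with equal FPKM totals, -1.29 with upper quartile scaling, -1.07 after centring, -1.09 with the trimmed mean of M values and -0.52 relative to length. With UV02_HG column 1 it was -1.55 over MF02 column 1 and -2.55 over MF02 column 2, and with UV02_HG column 2 it was -1.32 over MF02 column 1. MIG1 and TUP1 were at least 2-fold lower under all 11 alternatives to the deposited scale. SIP2 and REG1 turned positive relative to length, at 0.0576 and 0.109. This follows from subtracting the running median, -1.31 at SIP2 and -1.61 at REG1. The origin of the length trend and of the differences between scalings was not tested. In reads not divided by length, the beta subunit shares were 14.96% SIP1, 32.3% SIP2 and 52.7% GAL83 in UV02_HG, against 23.3%, 19.0% and 57.7% in MF02. In MF02 alone, column 1 gave 9.17% SIP1 and 26.1% SIP2, and column 2 gave 16.2% and 18.5%. The weakest member value, SIP1 in UV02_HG, rested on 100 reads in a column, which limits its precision.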
